A study of Mus musculus with 10 samples.

Results

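Transcript levels of 8 genes of the phosphoinositide 3-kinase (PI3K) and AKT module were followed in the forebrains of 10 mouse embryos at E12.5. The genes were the PI3K inhibitor Pik3ip1, the catalytic subunits Pik3ca and Pik3cb, the regulatory subunits Pik3r1, Pik3r2 and Pik3r3, and the kinases Akt1 and Akt2. They were found by symbol among probe sets that name a single gene, with the probe set of the highest mean over all arrays kept for each gene, and make up 8 of the 19938 genes measured. The 5 embryos titled dtg, from transgenic mice, expressed a FoxO3 allele that is always active, driven by the CaMKIIa promoter, described as specific to the forebrain. The 5 embryos titled stg came from mice that the labels call controls. What the 2 abbreviations stand for, and whether control embryos carried any transgene, is not stated in the labels. All embryos were of a mixed CD1/NMRI background, were taken from 2 dams 12 days after the plug, and were dissected so that most of the thalamus was cut away. Which embryo came from which dam is not given, so a difference between litters cannot be told apart from one between the groups.

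PI3K is a lipid kinase made of a catalytic and a regulatory subunit. When insulin or a growth factor binds its receptor, the regulatory subunit docks on the receptor or its substrates, the catalytic subunit makes a phosphorylated lipid at the plasma membrane, and AKT kinases are recruited there and activated. AKT phosphorylates FOXO transcription factors, which are then held out of the nucleus, so that an always active FoxO3 no longer responds to this pathway. In the embryonic forebrain the pathway is known for its part in the growth, survival and division of neural progenitors. The question asked of these arrays was which transcripts of the pathway differ when active FoxO3 is present.

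The values were log2 intensities from 1 Affymetrix array per embryo, as deposited, with array medians between 5.36 and 5.39. Pearson correlations between arrays across all genes lay between 0.98 and 0.996, and stg embryo 5 had the lowest mean correlation with the others, at 0.985. Forebrain identity was checked on 9 measured marker genes, all of them above the median level of all genes, with a list mean of 7.24 to 7.51 in dtg and 7.04 to 7.77 in stg forebrains. None of 7 hindbrain and spinal cord markers and none of 6 midbrain markers lay above that median. Of 10 thalamus markers, however, 9 lay above it. Their list mean was 6.58 to 7.47 in dtg and 5.73 to 7.002 in stg forebrains, with 9 of 10 genes higher in dtg and none called. Olig3 differed by 2.26 on the log2 scale, the largest increase of all genes, and Tcf7l2 by 1.74, while Sox14 differed by -0.015. All 12 neuron markers were higher in dtg, by 0.33 in the list mean, and none was called. Their mean was 8.55 to 9.13 in dtg and 7.59 to 8.86 in stg forebrains, and the 7.59 was that of stg embryo 5. The same embryo had the highest mean of 10 mesenchyme markers, 8.30, against 6.33 to 7.33 in the other 9 forebrains. The Foxo3 probe set, which may or may not cover the transgene, read 6.98 ± 0.15 in dtg and 6.64 ± 0.14 in stg forebrains (SD, n = 5 each; limma adjusted p = 0.218). Camk2a, whose promoter drives the transgene, read 5.92 ± 0.13 in dtg and 6.23 ± 0.18 in stg forebrains (limma adjusted p = 0.391). The labels do not say which of the embryos are litter mates or whether RNA was handled in batches. The p-values set the group difference against the spread within groups. They treat the 10 embryos as independent, which litter mates may not be, and the number of embryos limits the precision.

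Promoter windows of 2 of the genes are shown here. That of Pik3ip1 was taken because it was the gene that changed. For Akt1, the member with a forkhead motif, the window that holds the motif was taken. Sequences are those of RefSeq on GRCm38.p6, run 5′ to 3′ on the strand of the gene and cover 250 bases before to 50 bases after an annotated start. Capitals mark the motif GTAAACA or its reverse complement TGTTTAC, the core recognised by forkhead factors such as FOXO3.
Pik3ip1, chr11:3330481-3330780, plus strand: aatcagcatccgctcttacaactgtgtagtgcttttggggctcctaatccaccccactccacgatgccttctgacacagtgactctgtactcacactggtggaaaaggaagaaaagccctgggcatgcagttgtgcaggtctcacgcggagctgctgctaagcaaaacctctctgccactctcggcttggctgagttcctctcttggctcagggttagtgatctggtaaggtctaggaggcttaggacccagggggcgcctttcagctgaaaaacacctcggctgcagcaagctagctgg
Akt1, chr12:112674835-112675134, minus strand: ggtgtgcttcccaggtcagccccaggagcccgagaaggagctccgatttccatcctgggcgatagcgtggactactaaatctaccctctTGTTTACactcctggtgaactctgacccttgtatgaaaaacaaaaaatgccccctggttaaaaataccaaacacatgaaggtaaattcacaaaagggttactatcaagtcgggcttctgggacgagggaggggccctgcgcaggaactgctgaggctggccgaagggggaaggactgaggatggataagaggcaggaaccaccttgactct
The Pik3ip1 window held neither form of the motif. The Akt1 window shown held 1 copy, TGTTTAC, beginning 161 bases before the start, and another Akt1 window, not shown, held none. All 8 genes had at least 1 window in the table, and of their 15 windows the Akt1 window shown was the only one with the motif. Among all 32851 windows of the same length, 3.65% held it on either strand. A match in such a window is a description of the letters, and the arrays did not measure binding. The 8 genes lie on 8 different chromosomes, so none neighbours another.

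Of the 8 genes Pik3ip1 rose in dtg forebrains, and the other 7 did not pass the test across all genes. The test was limma on all 19938 genes, two-sided, with Benjamini-Hochberg adjustment over all of them and a threshold of 0.05. By this rule 1 of the 8 genes was called, against 0.105% of all genes, or 0.0652% when genes higher in dtg are counted alone. At an unadjusted p below 0.05 there were 3 of the 8, Pik3ip1, Pik3ca and Pik3r2, against 7.58% of all genes. The dtg and stg values did not overlap for 2 of the 8, Pik3ip1 and Pik3r2, against 1.6% of all genes (0.978% with dtg above, 0.622% with dtg below). The 8 genes were put together with earlier results of these arrays known, so these counts describe the genes and are no independent support. The median log2 difference of the 8 was 0.016, and that of all genes was -0.0038. In bulk tissue of this kind fewer cells of a type and less RNA per cell cannot be told apart.

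**Figure D1:**
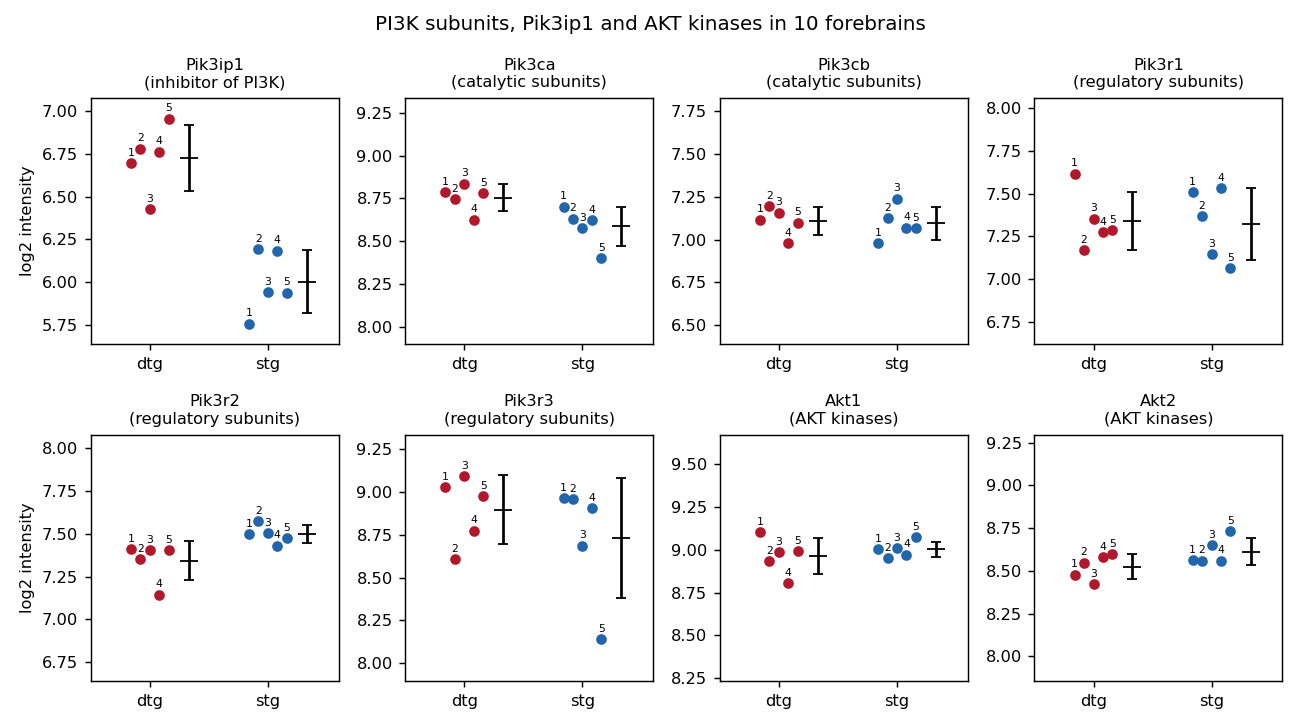
Log2 intensity (vertical axes, each spanning the same range of log2 units) of the 8 genes in 5 dtg forebrains (red) and 5 stg forebrains (blue), with embryo numbers beside the points and the mean ± SD of each group in black. The 5 dtg values of Pik3ip1 lie between 6.43 and 6.96, above all stg values, which lie between 5.76 and 6.19, and stg embryo 5 is the lowest of all 10 points for Pik3ca, Pik3r1 and Pik3r3.

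Pik3ip1 encodes a transmembrane protein that binds the catalytic subunit of PI3K and lowers its activity. Its log2 intensity was 6.70, 6.78, 6.43, 6.76 and 6.96 in dtg embryos 1 to 5, against 5.76, 6.19, 5.94, 6.18 and 5.94 in stg embryos 1 to 5. Every dtg forebrain was above every stg forebrain, and the lowest dtg value exceeded the highest stg value by 0.24. Pik3ip1 averaged 6.73 ± 0.19 in dtg and 6.003 ± 0.18 in stg forebrains (SD, n = 5 each), a rise of 0.72 ± 0.11 on the log2 scale (SE; 95% interval 0.49 to 0.95), or 1.65-fold (limma adjusted p = 0.0262). The spread within each group was near 0.19, so the difference was larger than the spread of either group. By p-value it ranked 15 among the 21 genes called, and among those 21 only 1, Bdh2, had a larger increase; over all genes, called or not, 34 had.

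The size of the Pik3ip1 difference changed little when any single embryo was left out, between 0.66 and 0.80 on the log2 scale, but the call did change. It was kept in 4 of 10 such fits and lost in 6. The limma adjusted p was 0.0839 without dtg embryo 1, 0.0887 without dtg embryo 2, 0.0713 without dtg embryo 4 and 0.0843 without dtg embryo 5. It was 0.0722 without stg embryo 1 and 0.0926 without stg embryo 3. Without stg embryo 5, the array that stood apart, the difference was 0.71 and the call was kept (limma adjusted p = 0.0389). With the replicate number of the titles as a block the difference was again 0.72 and the call was lost (limma adjusted p = 0.0947). Thalamus markers were higher in dtg forebrains as given above. With the mean of the thalamus and midbrain markers as a covariate Pik3ip1 differed by 0.74 ± 0.15 (SE; limma adjusted p = 0.421), and with the mean of the neuron markers by 0.72 ± 0.12 (limma adjusted p = 0.0215). G2/M markers were lower in dtg forebrains for 11 of 11 genes, with list means of 8.06 to 8.54 in dtg and 8.44 to 8.64 in stg forebrains. With their mean as a covariate Pik3ip1 differed by 0.78 (limma adjusted p = 0.0604).

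**Figure D2:**
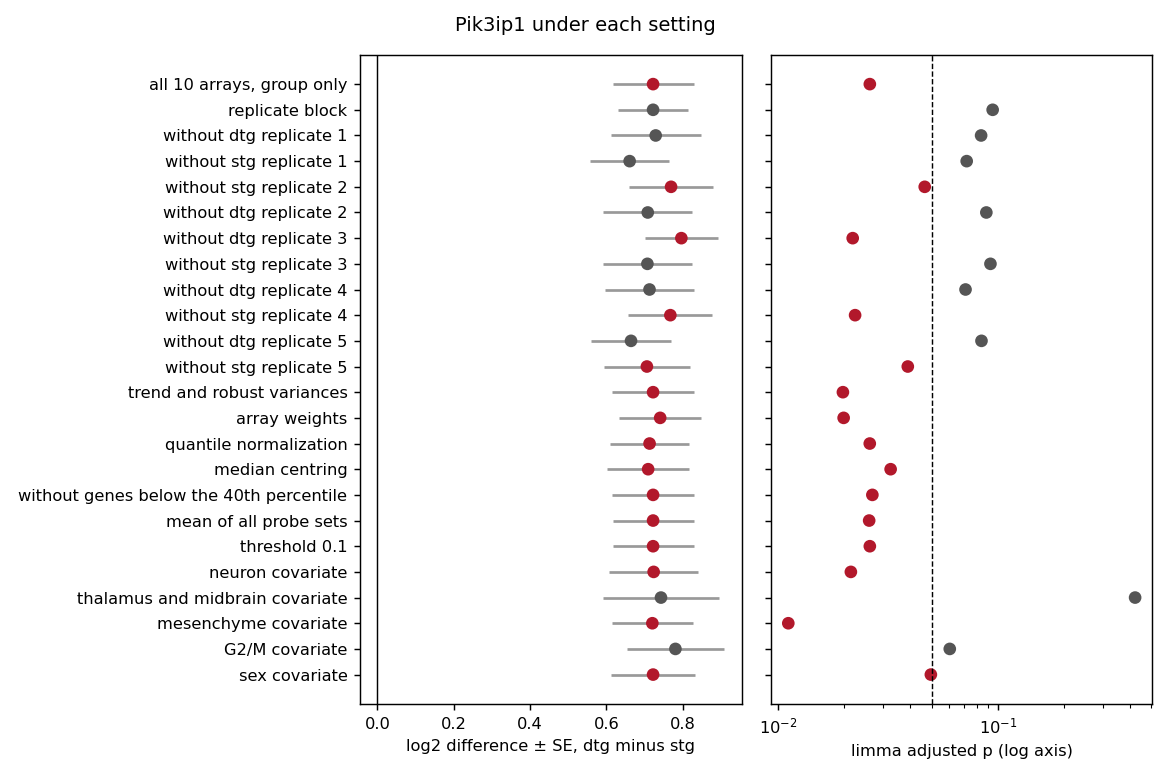
Log2 difference of Pik3ip1, dtg minus stg, with its SE (left) and its limma adjusted p on a log axis (right), under the group-only fit of all 10 arrays and each of 23 other settings. Red points pass an adjusted p of 0.05, grey points do not, and the dashed line marks 0.05; all differences lie between 0.66 and 0.80 while the adjusted p runs on both sides of the line.

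The catalytic subunits of PI3K phosphorylate the lipid itself. Pik3ca encodes the alpha subunit, which acts mainly below growth factor receptors, and read 8.79, 8.75, 8.84, 8.63 and 8.78 in dtg embryos 1 to 5, against 8.70, 8.63, 8.58, 8.62 and 8.40 in stg embryos 1 to 5. In 4 of 5 dtg forebrains Pik3ca was above every stg forebrain, and dtg embryo 4 lay among the stg values. Its mean was 8.76 ± 0.079 in dtg and 8.59 ± 0.11 in stg forebrains (SD, n = 5 each), a log2 difference of 0.17 ± 0.066 (SE; 95% interval 0.024 to 0.31) with an unadjusted limma p of 0.0256 and an adjusted limma p of 0.594. Without stg embryo 5, which had the lowest of the 10 values, the difference was 0.12 (limma adjusted p = 0.752). With the neuron marker mean as a covariate it was 0.099 (limma adjusted p = 0.705).

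Pik3cb, the beta subunit, which also acts below G protein-coupled receptors, read 7.12, 7.20, 7.16, 6.98 and 7.10 in dtg embryos 1 to 5, against 6.98, 7.13, 7.24, 7.07 and 7.07 in stg embryos 1 to 5. The groups covered nearly the same range. The log2 difference was 0.014 ± 0.062 (SE; 95% interval -0.12 to 0.15; limma adjusted p = 0.981), so that a change of more than 0.15 in either direction lay outside the interval.

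The regulatory subunits hold the catalytic subunit stable and silent until they dock on a phosphorylated receptor or adaptor. Pik3r2, which encodes the beta form, read 7.41, 7.35, 7.41, 7.15 and 7.40 in dtg embryos 1 to 5, against 7.50, 7.58, 7.50, 7.43 and 7.47 in stg embryos 1 to 5. All 5 dtg values were below all 5 stg values, although by a narrow margin, since the highest dtg value was 7.41 and the lowest stg value 7.43. Pik3r2 averaged 7.34 ± 0.11 in dtg and 7.50 ± 0.052 in stg forebrains (SD, n = 5 each). The log2 difference was -0.15 ± 0.062 (SE; 95% interval -0.29 to -0.019) with an unadjusted limma p of 0.0291 and an adjusted limma p of 0.603. Among all genes 0.622% had every dtg value below every stg value. Leaving out dtg embryo 4, the lowest of the 10, gave -0.10, and leaving out stg embryo 5 gave -0.16.

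Pik3r1, which encodes the alpha form and its shorter variants, read 7.62, 7.17, 7.35, 7.28 and 7.29 in dtg embryos 1 to 5, against 7.51, 7.37, 7.14, 7.53 and 7.06 in stg embryos 1 to 5. High and low values occurred in both groups, and the log2 difference was 0.018 ± 0.11 (SE; 95% interval -0.22 to 0.25; limma adjusted p = 0.984). Without stg embryo 5, the lowest value, the sign turned, to -0.047, and with the neuron marker mean as a covariate it was -0.099 (limma adjusted p = 0.858). Pik3r3, the gamma form, which is known for its expression in brain, was the most variable of the 8 genes among stg forebrains. It read 9.03, 8.61, 9.09, 8.78 and 8.98 in dtg embryos 1 to 5, against 8.96, 8.96, 8.69, 8.91 and 8.14 in stg embryos 1 to 5. Its log2 difference was 0.17 ± 0.15 (SE; 95% interval -0.17 to 0.50; limma adjusted p = 0.866). Without stg embryo 5 that difference was 0.017 (limma adjusted p = 0.995), and with the neuron marker mean as a covariate it was -0.050 (limma adjusted p = 0.926).

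The AKT kinases carry the signal from the lipid to their substrates, FOXO factors among them. Akt1, the broadly expressed form, read 9.10, 8.93, 8.99, 8.80 and 8.99 in dtg embryos 1 to 5, against 9.01, 8.95, 9.01, 8.97 and 9.07 in stg embryos 1 to 5. The dtg values lay on both sides of the stg range, with embryo 1 above it and embryos 2 and 4 below it. The log2 difference was -0.038 ± 0.060 (SE; 95% interval -0.17 to 0.092; limma adjusted p = 0.927).

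Akt2, the form best known for insulin-stimulated glucose uptake, read 8.48, 8.55, 8.42, 8.58 and 8.60 in dtg embryos 1 to 5, against 8.56, 8.56, 8.65, 8.56 and 8.73 in stg embryos 1 to 5. In 3 of 5 dtg forebrains it was below every stg forebrain. Its log2 difference was -0.089 ± 0.057 (SE; 95% interval -0.21 to 0.036; limma adjusted p = 0.79), and -0.059 without stg embryo 5, the highest of the 10. With the neuron marker mean as a covariate it was -0.040 (limma adjusted p = 0.93). Akt2 was the only one of the 8 genes with a second probe set, which averaged 8.16 ± 0.11 in dtg and 8.21 ± 0.13 in stg forebrains (SD, n = 5 each), a difference of -0.058. The difference was slightly larger than the SD within a group for the first probe set and smaller than it for the second. In the second only dtg embryo 1, at 8.03, was below every stg forebrain, the lowest of which read 8.06. The positions of these probe sets were not given, so whether both lie at the Akt2 gene was not checked. Probe set numbers of the other 7 genes ran by chromosome, in the order 11, 12, 13, 3, 4, 8 and 9. That of the first Akt2 probe set (10374364) lay beside Pik3ip1 on chromosome 11 (10373740). That of the second (10551393) lay between Pik3r3 on chromosome 4 and Pik3r2 on chromosome 8. Akt2 is on chromosome 7, so the first probe set, which gave the other Akt2 values here, may not lie at Akt2.

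**Figure D3:**
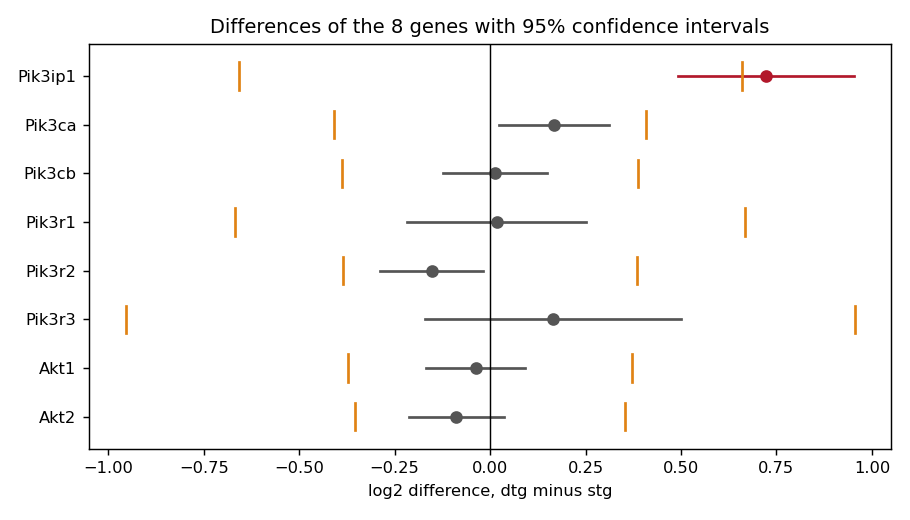
Log2 difference, dtg minus stg, of each of the 8 genes (points) with its 95% confidence interval (lines), red where the limma adjusted p is below 0.05. Orange ticks mark the size a difference would have needed to be called with that gene's own SE; the interval of Pik3ip1 runs from 0.49 to 0.95, and the other 7 points lie between -0.15 and 0.17, inside their ticks.

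The precision differed between the genes. The largest unadjusted p among the 21 called genes was 4.7e-05, and a gene had to reach about this p to be called. With its own standard error a difference of 0.35 on the log2 scale would have been called for Akt2, 0.37 for Akt1, 0.38 for Pik3r2, 0.39 for Pik3cb and 0.41 for Pik3ca. Pik3r1 would have needed 0.67 and Pik3r3 0.95, so smaller observed differences of these 2 regulatory subunits would not have been called at these standard errors. The SE of Pik3r3 was 0.15 with all arrays and 0.10 without stg embryo 5. Pik3ip1 needed 0.66.

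The stg embryo with the low neuron signal stood at one end for 4 of the 8 genes. Of all forebrains it also had the highest mesenchyme (8.30), endothelium (6.81), erythroid (7.58) and G2/M (8.64) marker means. Its forebrain (7.04) and thalamus (5.73) marker means were the lowest. Which of these signals goes with the 4 genes was not tested. In stg embryo 5 Pik3r3 was 0.74, Pik3r1 0.33 and Pik3ca 0.24 log2 units below the mean of the other 4 stg forebrains, and each was the lowest of all 10 values. Akt2 was 0.15 above the mean of the other 4 and the highest of all 10. Pik3ip1 in the same embryo differed by -0.081 from the other 4, inside the stg range. Akt1, Pik3cb and Pik3r2 were neither the lowest nor the highest of all 10 forebrains there. The Akt1 value was the highest among stg forebrains, 0.088 above the mean of the other 4. In dtg forebrains the same ordering was visible for embryos 1 and 3. They had the highest neuron marker means, 9.13 and 9.12, the 2 highest Pik3r3 values and, in the probe set used, the 2 lowest Akt2 values. In the other Akt2 probe set the 2 lowest dtg values were those of embryos 1 and 2, 8.03 and 8.09, with embryo 3 at 8.14. Embryos 1 and 3 also had the lowest G2/M marker means of all forebrains, 8.06 and 8.17. The neuron covariate fits of Pik3r3, Pik3r1, Pik3ca and Akt2 are given with their values. The thalamus and midbrain and the G2/M covariates also moved them: Pik3ca differed by 0.094 with the thalamus and midbrain markers and by 0.095 with the G2/M markers, and Akt2 by -0.028 with the thalamus and midbrain markers and by -0.022 with the G2/M markers. With the same covariates in turn Pik3r3 differed by 0.0062 and -0.060, and Pik3r1 by -0.069 and -0.15.

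**Figure D4:**
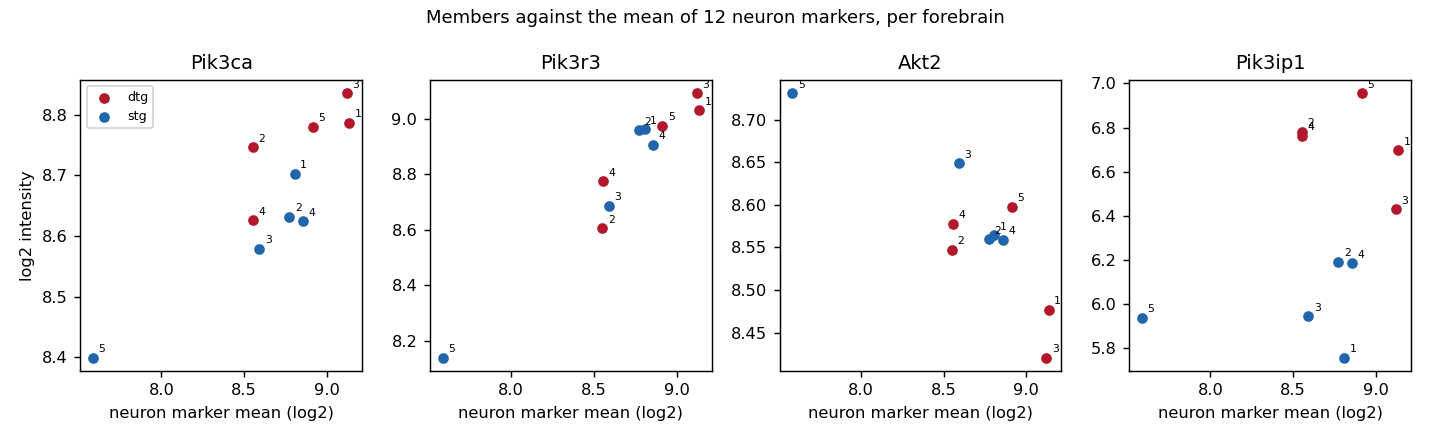
Log2 intensity of Pik3ca, Pik3r3, Akt2 and Pik3ip1 (vertical axes) against the mean log2 intensity of 12 neuron markers (horizontal axes) in 5 dtg (red) and 5 stg (blue) forebrains, numbered by embryo. The stg forebrain at 7.59 has the lowest Pik3ca and Pik3r3 and the highest Akt2, whereas its Pik3ip1 value of 5.94 lies among the other stg values.

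Other genes of the pathway were taken from a list ordered by role, of which 41 genes were measured. None of the 41 passed in limma across all genes, and 4 had an unadjusted p below 0.05, against 7.58% of all genes; of the 4, Pik3cd, Rictor and Inpp4a were higher and Tbc1d4 lower in dtg. Of the 41 genes 19 were higher and 22 lower in dtg, with a median log2 difference of -0.0058 beside -0.0038 for all genes. No gene of this list had dtg and stg values that did not overlap, against 1.6% of all genes.

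Of the further catalytic subunits of class I, both known mainly from blood cells, Pik3cd read 5.72 to 5.91 in dtg, with a median of 5.83, and 5.58 to 5.78 in stg forebrains, with a median of 5.72. Its log2 difference was 0.14 ± 0.059 (SE; limma adjusted p = 0.609). Pik3cg differed by 0.16 ± 0.084 (limma adjusted p = 0.721), and by 0.092 without dtg embryo 5. All 8 microglia markers were also higher in dtg, by 0.089 in the list mean (5.01 to 5.15 in dtg and 4.86 to 5.15 in stg forebrains), none was called, and their part in these 2 values was not tested. Among other regulatory subunits Pik3r6 differed by -0.12 and Pik3r5 by 0.067, and among class II and III kinases Pik3c3, the lipid kinase of autophagy and endosomes, differed by 0.098 and Pik3c2a by -0.069. None of the 7 genes in these 2 groups had an unadjusted p below 0.05. Single embryos moved 2 of these values: Pik3r5 was 0.017 without stg embryo 4, 0.040 without stg embryo 1 and 0.11 without stg embryo 3, and Pik3c2a was -0.021 without stg embryo 5 and -0.11 without stg embryo 2. With the neuron marker mean as a covariate Pik3r6 was -0.053.

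The next group held kinases that activate AKT and subunits of their complexes. Rictor, the subunit that defines mTOR complex 2, read 7.92, 7.97, 8.04, 7.84 and 7.87 in dtg embryos 1 to 5, against 7.88, 7.74, 7.73, 7.74 and 7.74 in stg embryos 1 to 5. The value of stg embryo 1 stood above the other 4 and inside the dtg range. The log2 difference of 0.16 ± 0.055 (SE) did not pass across all genes (limma adjusted p = 0.503). Mlst8, shared by both mTOR complexes, differed by -0.084, and by -0.047 without stg embryo 5, and the remaining 3 of 5 genes in this group were higher in dtg by 0.043 to 0.065. Among adaptors and activators Agap2, a GTPase that enhances PI3K activity in neurons, differed by 0.35 ± 0.26, and by 0.11 without stg embryo 5, while Gab2, a docking protein for PI3K, differed by 0.14. Neither had an unadjusted p below 0.05 with all arrays. Gab2 was 0.086 without dtg embryo 1 and 0.072 with the neuron covariate, and without dtg embryo 4 it was 0.21, with an unadjusted limma p of 0.0171 and an adjusted limma p of 0.421.

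Genes that oppose the pathway did not pass either. Of 8 measured lipid phosphatases 3 were higher and 5 lower in dtg. Inpp4a, which removes a phosphate from the lipid that AKT binds, read 7.93, 7.56, 7.93, 7.52 and 7.87 in dtg embryos 1 to 5, against 7.66, 7.61, 7.42, 7.64 and 7.12 in stg embryos 1 to 5. Its log2 difference of 0.27 ± 0.12 (SE; limma adjusted p = 0.639) was 0.18 without stg embryo 5 and 0.11 with the neuron covariate. Inppl1, the phosphatase also called SHIP2, differed by -0.12, by -0.071 without stg embryo 5 and by -0.048 with the neuron covariate. Among 7 AKT phosphatases and inhibitors the differences ran from -0.10 to 0.00095, with Ppp2r2a at -0.095 and Trib1 at -0.066. Ppp2r2a was -0.050 without dtg embryo 1 and -0.048 with the neuron covariate, and Trib1 was -0.014 without dtg embryo 3 and -0.11 without dtg embryo 5. Of 7 AKT substrates Tbc1d4, which controls glucose transporter traffic, had the smallest p, with 4.98 to 5.26 in dtg and 5.17 to 5.52 in stg forebrains and a log2 difference of -0.21 ± 0.085 (SE; limma adjusted p = 0.597), which was -0.13 with the neuron covariate. Gsk3a differed by -0.093.

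**Figure D5:**
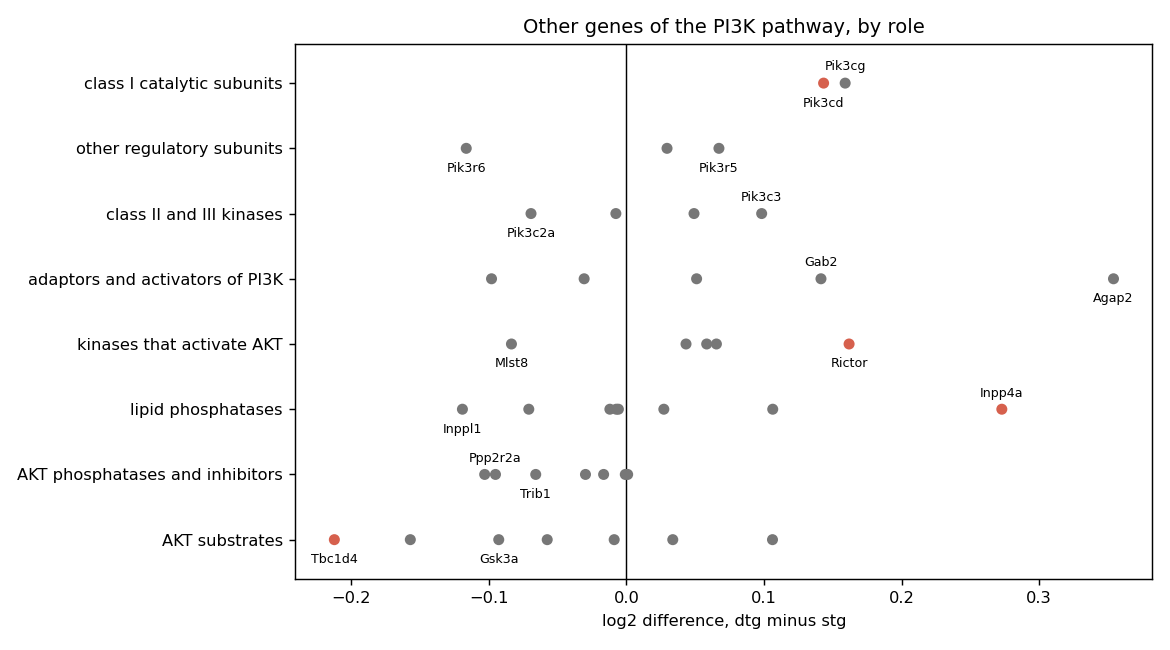
Log2 difference, dtg minus stg (horizontal axis), of 41 other genes of the PI3K pathway, 1 point per gene, in rows by role. Red points have an unadjusted limma p below 0.05 and grey points do not; the 4 red points are Pik3cd, Rictor, Inpp4a and Tbc1d4, none passes across all genes, and all points lie between -0.21 and 0.35.

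The genes whose values followed those of Pik3ip1 most closely over the 10 forebrains were Sfrp2 (Pearson r = 0.94), Tprgl (0.93), Mxra8 (0.93), Eif4e3 (0.91) and Bdh2 (0.91), with clone-named genes left out. These are the highest of 19938 correlations and share the group difference, so they describe likeness on these arrays. Each was higher in dtg forebrains, by 0.59 for Sfrp2, a secreted modulator of Wnt signalling, by 1.05 for the dehydrogenase gene Bdh2, by 0.77 for Mxra8, by 0.25 for Eif4e3 and by 0.23 for Tprgl on the log2 scale. Of these 5, Sfrp2 and Bdh2 passed across all genes (limma adjusted p = 0.00759 and 0.0222). When the group means were taken out, a different set came first, Mir106b (0.96), Mir206 (0.92), Itgb1bp1 (0.92), Med29 (0.92) and Acbd6 (0.91). The largest difference between dtg and stg among these 5 was -0.070, for Acbd6. Mir206 averaged only 2.43 in dtg and 2.48 in stg forebrains, far below the array medians of 5.36 to 5.39. How far it stands above background is unknown.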

How the data were processed

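RNA from part of each forebrain was hybridized to 1 Affymetrix array, with sense-strand target labelling per the labels' protocols. The authors deposited log2 intensities for 35556 probe sets; per the submitters' processing notes these were made with Affymetrix Expression Console, with no version or settings given. No further normalization was applied. The platform's gene table names a single gene for 21789 probe sets; 999 of 19938 genes had more than 1.

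Groups came from the titles, and limma 3.58.1 (R 4.3.3) was used to test dtg against stg (group only, empirical Bayes, tested on simulated data). The members and lists were chosen with earlier results of these data known. Named genes were the 8 members, the 2 smallest p-values per role of the wider list, the 5 genes most correlated with Pik3ip1 by either measure, Foxo3 and Camk2a.

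The comparison was repeated with the replicate number as a block, without each embryo, with a variance trend and robust variances, weighted arrays, quantile or median scaling, no genes under the 40th percentile, probe sets averaged, a threshold of 0.1, and covariates for neurons, thalamus and midbrain, mesenchyme, G2/M and sex (Xist was high in 3 embryos of each group).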

Additional observations from a re-analysis of the deposited data

Results flagged for a closer look

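In 5 of the 48 groups of 5 forebrains looked at, over the 8 genes and 16 named genes of the wider list, 1 forebrain lay far from the other 4 by Dixon's ratio; chance gives about 1 in 20. Pik3r2 in dtg embryo 4 read 7.15, below the next lowest dtg value of 7.35, and this forebrain widened the dtg spread of the gene whose groups did not overlap. Rictor in stg embryo 1 read 7.88, above the next highest stg value of 7.74. Trib1 in stg embryo 4 read 5.94, above 5.87. Ppp2r2a in dtg embryo 1 read 7.12, below 7.32, and Gsk3a in stg embryo 5 read 7.96, below 8.12. Of these 5 the last concerns the stg embryo with the low neuron signal.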

How the results depend on the processing

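The number of genes called over all 19938 was 21, 2 with the replicate block, 39 with array weights, 55 at a threshold of 0.1, 94 with the neuron covariate, 110 with the mesenchyme covariate and 0 with the thalamus and midbrain covariate (limma; 671 at an unadjusted p below 0.05), and from 7 to 58 without 1 embryo. Of the 8 genes 1, Pik3ip1, was called; the count was 0 with the replicate block, the thalamus and midbrain covariate and the G2/M covariate, and from 0 to 1 without 1 embryo. The Pik3ip1 difference stayed between 0.66 and 0.80 in all 23 alternatives, with an unadjusted limma p of at most 9.1e-05 when 1 embryo was left out. The replicate number was not taken as a pairing, since deviations of same-numbered embryos correlated between -0.25 and 0.24 and 0 of 5 dtg embryos correlated best with the stg embryo of their own number. With 41 wider pathway genes the count was 0 in the fit of all arrays and in all 23 alternatives.

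None of the other 7 genes was called in any of the 23 alternatives (smallest limma adjusted p = 0.295). The sign turned in 14 of their 161 values. Pik3r1 read -0.051 without dtg embryo 1, -0.027 without stg embryo 3, -0.047 without stg embryo 5, -0.0080 with array weights, -0.099 with the neuron covariate, -0.069 with the thalamus and midbrain covariate and -0.15 with the G2/M covariate. Its values without 1 embryo ran from -0.051 to 0.070. Pik3cb ran from -0.016 to 0.050 without 1 embryo, turning sign without stg embryo 1 and without dtg embryo 2 (-0.0077), and read -0.082 with the thalamus and midbrain covariate and -0.0023 with the G2/M covariate. Pik3r3 read -0.050 with the neuron covariate and -0.060 with the G2/M covariate, and Akt1 ran from -0.073 to 0.0015 without 1 embryo, the last without dtg embryo 4. In the wider list Agap2 read -0.021, -0.048 and -0.11 with the neuron, thalamus and midbrain, and G2/M covariates, Gab2 -0.013 and -0.0031 with the thalamus and midbrain covariate and the G2/M covariate, Mlst8 0.031 with the thalamus and midbrain covariate and Pik3c2a 0.011 with the G2/M covariate. The cause of these changes was not tested. Akt2 and Pik3r2 stayed lower and Pik3ca higher in dtg throughout. The table gives no background level, so how far dim genes such as Pik3cg stand above it is unknown.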
